A study of Homo sapiens with 18 samples.

Results

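RNA levels were compared between KMS11 cells, labelled MMSET knock-outs, that received the F1177A form of MMSET by retrovirus and the same kind of cells that received the empty DSRed vector, with 3 arrays in each group. KMS11 is a human multiple myeloma cell line that carries the t(4;14) translocation. The labels call F1177A an active mutant and name DSRed as the control of the repletion experiment. Every probe detected at p under 0.01 on at least 3 of these 6 arrays was taken, which kept 11545 of 48803 probes. With 1 probe per gene symbol they gave 9585 features, of which 7937 were named genes and 1648 were probes without a single symbol. The series holds 18 Illumina bead arrays in 6 groups of 3: in the same repletion system wild-type MMSET II and Y1118A, labelled inactive, and in a second system KMS11 cells with a doxycycline-inducible hairpin aimed at the 5' region of MMSET, without doxycycline (no DOX) and with it (+DOX). The labels do not say which allele was removed in the knock-out, whether the line is 1 clone, how much protein each virus gave, or whether the 3 arrays of a group came from separate cultures. The p-values therefore reflect variation among arrays alone, pooled over all 6 groups of the series, and that variation may be technical.

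MMSET, gene symbol NSD2, is a histone methyltransferase that places mainly dimethylation on lysine 36 of histone H3, a mark of transcribed chromatin. In myeloma with t(4;14) the gene comes under control of the immunoglobulin heavy chain locus and is expressed at a high level, often together with the receptor kinase FGFR3. The mark counteracts the silencing mark that EZH2 places on lysine 27 of the same histone, and cells with t(4;14) depend on MMSET for growth and adhesion.

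The NSD2 probe that was kept did not separate the groups. It read 5.66, 5.68 and 5.63 with DSRed and 5.92, 5.62 and 5.77 with F1177A (normalised log2 intensity), and the arrays overlapped (log2 difference 0.11, SE 0.132, adjusted p = 0.582, limma, Benjamini-Hochberg). The probe was detected on all 6 arrays, so some NSD2 RNA was measured in cells labelled knock-outs. The other NSD2 probes were detected on none of these arrays. The kept probe read little above the dimmest detected readings of the 6 arrays, 5.24 to 5.52. The sources used here do not say whether the probe lies inside the viral construct, so it does not check the labels.

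One control array stood apart. The 95th percentile of intensity was 1033 on DSRed replicate 3, against 491 and 453 on the other DSRed arrays and 368 to 493 with F1177A. Its correlation with the other DSRed arrays over all features was 0.9795 and 0.9839, while the other pairs within the 2 groups reached 0.9941 to 0.9961. The log2 difference of that percentile was -0.579 for F1177A minus DSRed, -0.878 for F1177A minus MMSET II, -0.894 for F1177A minus Y1118A and 0.752 for +DOX minus no DOX. Quantile normalisation removes such a shift from the distribution as a whole. Scaling each array to the median of all probes leaves it in, and there the median of all features lies at -0.4475 for F1177A minus DSRed, -0.6566 against MMSET II and -0.6594 against Y1118A. Directions below are relative to the bulk of features. Where a list's median is printed and turns sign under that scaling, both values are given. Medians not printed elsewhere also turned, from 0.14 to -0.28 for the ERK feedback and target genes, from 0.08 to -0.42 for the cyclins D and CDK inhibitors, from 0.02 to -0.46 for the nuclear-coded respiratory chain, from 0.16 to -0.28 for the cytokine receptors and JAK-STAT list and from 0.12 to -0.36 for sterol and fatty acid synthesis.

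In all, 2083 of 9585 features changed between F1177A and DSRed at an adjusted p under 0.05 (21.7%), 1204 higher (12.6%) and 879 lower (9.17%). At least 2-fold changes were mostly rises, 209 (2.18%) against 35 falls (0.365%). This balance depended on the scaling, since scaling to the median of all probes gave 108 rises and 230 falls. It also drew on features detected in 1 group alone, and with probes detected on all 6 arrays 74 rises and 20 falls remained. The arrays of the 2 groups did not overlap for 38.7% of features, with F1177A above in 19.8% and below in 18.9%. Without DSRed replicate 3 the count of calls was 1713. With scaling to the median of all probes it was 1764, and the share of rises among the calls moved from 57.8% to 14.3%. The median size of a called change was 0.567 for rises and 0.482 for falls. Of 1698 genes with several kept probes 2 had probes called in opposite directions, the mismatch repair gene MSH3 (0.27 and -0.42) and PPA2, a mitochondrial pyrophosphatase (0.38 and -0.39), and these have no settled direction.

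The largest rise was that of S100A10. This gene, whose product is the partner of annexin A2 at the cell membrane, read 6.64, 6.84 and 6.75 with DSRed and 10.31, 10.46 and 10.46 with F1177A, a log2 difference of 3.67, SE 0.188, adjusted p = 3.27e-11. Its second probe rose by 3.47. A pair of thymosin beta genes, whose small proteins bind actin monomers, followed. TMSB15A read 6.95, 6.83 and 7.23 with DSRed and 10.07, 9.90 and 10.01 with F1177A (2.99, SE 0.153, adjusted p = 3.27e-11), and TMSB15B read 6.63, 6.55 and 6.58 with DSRed and 9.22, 9.29 and 9.27 with F1177A (2.67, SE 0.139, adjusted p = 3.92e-11). These are near-identical copies whose probes cannot be assumed to tell them apart. HERC5, an interferon-inducible ligase that conjugates ISG15, read 6.26, 6.17 and 6.36 with DSRed and 8.89, 8.81 and 8.92 with F1177A (2.61, SE 0.12, adjusted p = 1.55e-11). MTURN, a regulator of progenitor differentiation, read 6.03, 5.89 and 5.87 with DSRed and 8.44, 8.45 and 8.56 with F1177A (2.55, SE 0.12, adjusted p = 1.55e-11). PLS3, a plastin that bundles actin filaments, read 5.56, 5.42 and 5.86 with DSRed and 8.002, 7.90 and 8.001 with F1177A (2.35, SE 0.107, adjusted p = 1.55e-11). In none of these genes did the groups overlap, and the gap between the groups was several times the range within either. ALOX5, the lipoxygenase that opens leukotriene synthesis, rose by 2.29 (SE 0.14), and PDK3, a kinase that restrains pyruvate dehydrogenase, rose by 2.27 (SE 0.116), each detected on 1 of 3 DSRed arrays.

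Several of the strongest rises started from probes that no DSRed array detected, so only a lower bound of the fold can be given. CA2, a cytosolic carbonic anhydrase, read 4.34, 4.30 and 4.59 with DSRed and 7.39, 7.50 and 7.59 with F1177A, at least 4.35-fold higher (adjusted p = 1.55e-11). PLOD2, a lysyl hydroxylase that modifies collagen for cross-linking, read 4.40, 4.40 and 4.42 with DSRed and 7.33, 7.34 and 7.41 with F1177A, at least 3.97-fold higher (adjusted p = 3.27e-11). IGF2BP2, a protein that binds and stabilises mRNA, read 4.94, 4.56 and 4.61 with DSRed and 7.41, 7.24 and 7.54 with F1177A, at least 4.07-fold higher (adjusted p = 1.79e-10). The lower bound was 4.3-fold for GALNT18, of the family that starts mucin-type glycosylation, 4.09-fold for the secreted binding protein IGFBP7, 3.15-fold for RADX, which binds single-stranded DNA at replication forks, 2.81-fold for the actin-associated RAI14, and 2.79-fold for the collagen chain COL22A1. In all, 222 features were detected on 3 of 3 F1177A arrays and 0 of 3 DSRed arrays, and 52 showed the opposite. Each of these passed the detection rule through 1 group alone, so that they differ is no result in itself.

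The largest falls were smaller in size. CBLN2, a secreted cerebellin known from synapses, read 7.41, 7.25 and 7.27 with DSRed and 5.03, 5.04 and 5.49 with F1177A (-2.12, SE 0.166, adjusted p = 1.77e-08), and was detected on 1 of 3 F1177A arrays. HBD, the delta chain of haemoglobin, read 8.54, 8.63 and 8.43 with DSRed and 6.99, 6.91 and 6.87 with F1177A (-1.61, SE 0.175, adjusted p = 1.33e-06). CASP1, the protease that matures interleukin-1 beta, read 6.77, 6.76 and 6.92 with DSRed and 5.18, 5.40 and 5.35 with F1177A (-1.504, SE 0.124, adjusted p = 3.35e-08), with 2 of 3 F1177A arrays detected. The F1177A arrays lay below all DSRed arrays in each. NRCAM, a neuronal adhesion molecule of the immunoglobulin superfamily, fell by 1.47 (SE 0.173, adjusted p = 3.82e-06), and INHBE, an inhibin beta chain induced in stressed cells, fell by 1.41 (SE 0.223, adjusted p = 0.000136). Other genes were detected on no F1177A array. ADM, the vasodilator peptide adrenomedullin, read 7.16, 7.20 and 7.05 with DSRed and 5.21, 5.19 and 4.71 with F1177A, at least 3.58-fold lower (adjusted p = 1.89e-09). The bound was 2.19-fold for LAMP5, a lysosome-associated membrane protein, 2.06-fold for GALNT13, 1.67-fold for the transcription factor MEF2C, 1.49-fold for the collagen receptor DDR2 and 1.93-fold for COXFA4L2, a hypoxia-inducible mitochondrial protein. The strip plots of the largest rises and falls show these levels array by array.

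**Figure D1:**
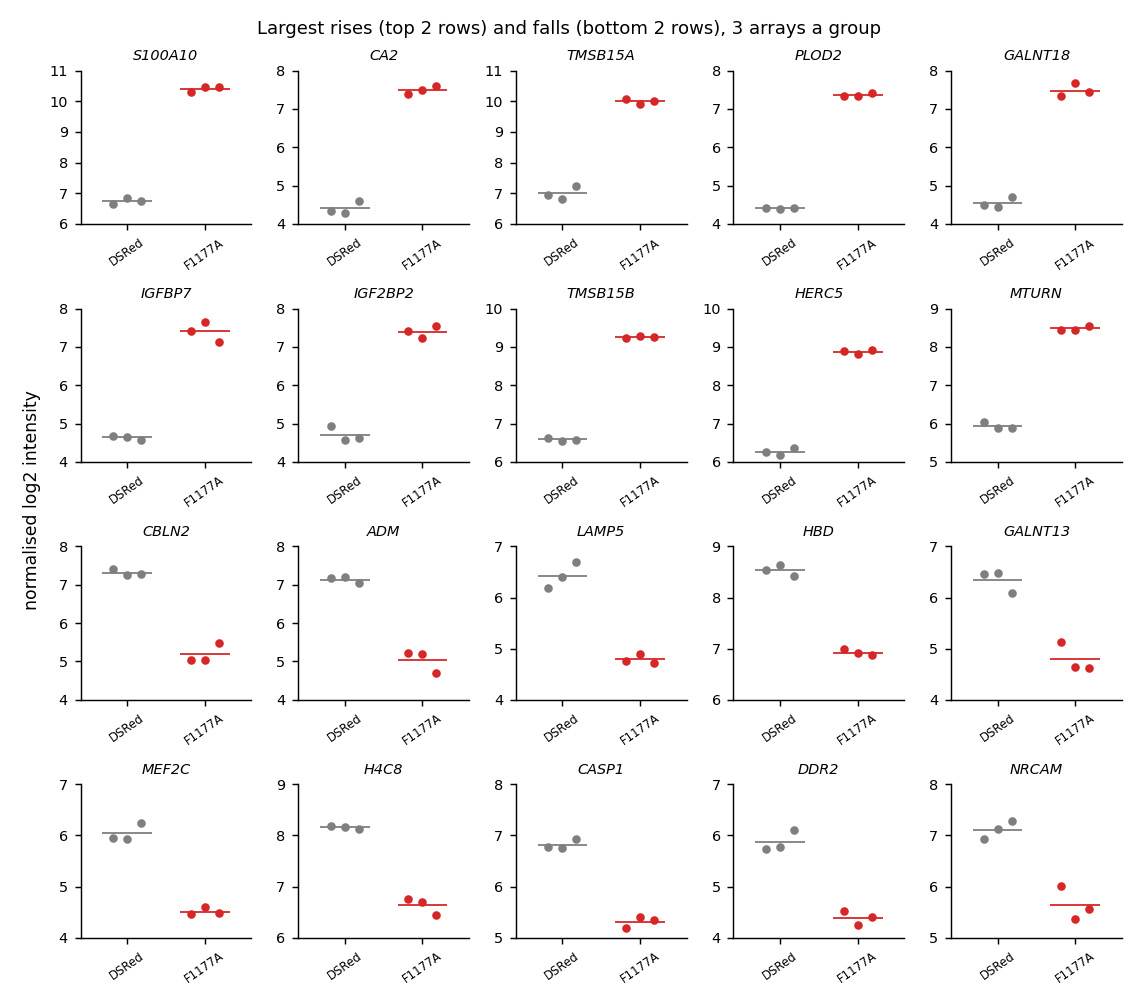
Normalised log2 intensity of the 10 largest rises (upper rows) and 10 of the largest falls (lower rows) on the 3 DSRed arrays (grey) and the 3 F1177A arrays (red), with a line at each group mean. The groups do not overlap in any panel. The dimmest detected readings of the 6 arrays lie at 5.24 to 5.52, and levels below that range were not detected.

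Genes of actin, adhesion and membrane shape were among those that rose. All 5 measured members of the thymosin and MARCKS list rose, with a median log2 difference of 1.64, beside a median of -0.01 over all features and 12.6% of all features called higher. MARCKS, a substrate of protein kinase C that tethers actin to the membrane, read 6.82, 6.77 and 6.92 with DSRed and 8.54, 8.46 and 8.41 with F1177A (1.64, SE 0.0978, adjusted p = 3.02e-10). Without DSRed replicate 3, 4 of the 5 were called. In the actin and focal adhesion list 8 of 30 rose and 0 fell, with a median of 0.17 that turned to -0.28 under scaling to the median of all probes. EVL, which promotes actin filament elongation, read 8.12, 8.22 and 7.89 with DSRed and 10.13, 10.35 and 10.25 with F1177A (2.17, SE 0.1, adjusted p = 1.55e-11), and ZYX, the focal adhesion protein zyxin, read 7.93, 7.90 and 7.74 with DSRed and 8.94, 8.91 and 8.86 with F1177A (1.04, SE 0.153, adjusted p = 5.76e-05). The groups lay farther apart for EVL than for ZYX, with no overlap in either. Abundant cytoskeletal genes of that list such as ACTB, ACTG1, PFN1, CFL1 and MYH9 were not called.

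Adhesion genes moved both ways, beside 12.6% of all features called higher and 9.17% lower. Of 13 measured cadherin and junction genes 5 rose and 3 fell (median 0.21, or -0.28 under scaling to the median of all probes and -0.04 with array brightness as a covariate). CDH2, the neural cadherin that is a known marker of t(4;14) myeloma, read 5.93, 5.65 and 5.49 with DSRed and 7.64, 7.40 and 7.71 with F1177A (1.89, SE 0.158, adjusted p = 4.15e-08). NECTIN3, a junctional adhesion molecule, read 8.46, 8.67 and 8.78 with DSRed and 7.83, 7.60 and 7.71 with F1177A (-0.92, SE 0.129, adjusted p = 3.36e-05), and TJP1, a tight junction scaffold, read 6.98, 6.92 and 6.80 with DSRed and 6.15, 6.20 and 6.25 with F1177A (-0.70, SE 0.162, adjusted p = 0.00449). The F1177A arrays thus lay above DSRed for CDH2 and below it for both of the others. Among 14 integrins and adhesion receptors 3 rose and 1 fell, led by ITGB1, the shared beta chain of matrix-binding integrins (0.83, SE 0.095, adjusted p = 2.58e-06), and ITGAL, the alpha chain of LFA-1 (0.74, SE 0.109, adjusted p = 5.91e-05). The BEX family list also holds TCEAL genes. Of its 6 measured members 4 rose, BEX1, BEX3, TCEAL4 and TCEAL8, with a list median of 0.50, or -0.02 under scaling to the median of all probes. BEX3, which takes part in neurotrophin receptor signalling, read 8.06, 8.16 and 8.44 with DSRed and 10.25, 10.04 and 10.17 with F1177A (1.93, SE 0.106, adjusted p = 9.82e-11), and BEX1 rose from below detection by at least 2.93-fold (adjusted p = 2.56e-08). BEX1 passed the detection rule through F1177A alone.

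Genes of the start of S phase rose as a broad group of small changes. Of 34 measured genes of G1/S and DNA replication 23 rose and 0 fell, with a median of 0.47 and with the F1177A arrays all above the DSRed arrays for 31 of 34. Over all features 12.6% were called higher and 9.17% lower, and the F1177A arrays all lay above the DSRed arrays for 19.8%. The mean level of the list was 8.94, 8.93 and 8.81 with DSRed and 9.38, 9.42 and 9.37 with F1177A, and all F1177A arrays lay above all DSRed arrays. Under scaling to the median of all probes the median was -0.01, which is 0.4361 above the median of all features, and 0 members were called. Without DSRed replicate 3 21 of the 34 were called, and with array brightness as a covariate 20. CDT1, which loads the replicative helicase at origins, read 8.71, 8.73 and 8.31 with DSRed and 9.50, 9.56 and 9.36 with F1177A (0.89, SE 0.13, adjusted p = 5.55e-05). CDC45, a part of the active helicase, read 9.21, 9.14 and 9.20 with DSRed and 9.94, 9.89 and 9.98 with F1177A (0.75, SE 0.088, adjusted p = 3.69e-06). MCM3, a subunit of the helicase ring, read 10.79, 10.78 and 10.85 with DSRed and 11.58, 11.50 and 11.62 with F1177A (0.76, SE 0.106, adjusted p = 3.36e-05), and the ring subunits MCM2, MCM4, MCM5 and MCM7 were also called higher. UNG, which removes uracil from DNA, rose by 0.87 (SE 0.155), and CCNE1, the cyclin of S-phase entry, by 0.81 (SE 0.191). PCNA, TYMS, ORC1 and PRIM1 were among the 11 not called.

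Genes of later steps of the cycle were also measured, beside 12.6% of all features called higher and 9.17% lower. Of 35 genes of mitosis and G2/M 7 rose and 0 fell (median 0.27, or -0.23 under scaling to the median of all probes). AURKB, a kinase of chromosome segregation, read 8.56, 8.56 and 8.50 with DSRed and 8.97, 9.11 and 9.12 with F1177A (0.53, SE 0.132, adjusted p = 0.00781). KIF20A, a kinesin of cytokinesis, rose by 0.50 (SE 0.14, adjusted p = 0.0143). PLK1, CDK1, CCNB1, TOP2A and FOXM1 were not called. Among 9 D-type cyclins and CDK inhibitors CCND3 rose by 0.73 (SE 0.112, adjusted p = 9.52e-05), together with the inhibitors CDKN2D (0.91, SE 0.213, adjusted p = 0.0049) and CDKN1C (0.57, SE 0.155, adjusted p = 0.0128). Of 27 DNA repair genes 6 rose and 0 fell, led by GADD45A, a stress-induced growth arrest gene, which read 8.97, 9.18 and 9.20 with DSRed and 9.95, 10.002 and 10.19 with F1177A (0.93, SE 0.105, adjusted p = 1.96e-06). The repair list's median of 0.15 became -0.32 under scaling to the median of all probes. EZH2, the Polycomb methyltransferase of lysine 27, read 8.11, 7.94 and 8.003 with DSRed and 8.43, 8.58 and 8.57 with F1177A (0.51, SE 0.103, adjusted p = 0.00154), and DNMT1, which copies DNA methylation at replication, rose by 0.56 (SE 0.092, adjusted p = 0.000187). Of 27 chromatin modifiers 7 rose and 1 fell (median 0.14, or -0.28 under that scaling).

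Histone genes fell while replication genes rose. Of 25 measured histone genes 14 fell and 1 rose, with a median of -0.55, against 9.17% of all features called lower. The mean level of the list was 8.74, 8.75 and 8.65 with DSRed and 8.28, 8.27 and 8.28 with F1177A. H4C8, a histone H4 gene, read 8.18, 8.16 and 8.13 with DSRed and 6.75, 6.70 and 6.45 with F1177A (-1.53, SE 0.273, adjusted p = 0.000477). H2BC5, a histone H2B gene, read 9.62, 9.59 and 9.97 with DSRed and 8.68, 8.63 and 8.67 with F1177A (-1.07, SE 0.176, adjusted p = 0.0002), and H2AC18, a histone H2A gene, read 10.48, 10.37 and 10.24 with DSRed and 9.71, 9.74 and 9.61 with F1177A (-0.68, SE 0.165, adjusted p = 0.00645). H2AJ, a variant made outside S phase, read 8.02, 8.30 and 7.83 with DSRed and 7.26, 7.13 and 7.15 with F1177A (-0.87, SE 0.137, adjusted p = 0.000124). The F1177A arrays lay below all DSRed arrays in these genes, and each fall was larger than the spread within a group. H1-2, a linker histone, fell by 0.61 (SE 0.194, adjusted p = 0.0293). Of the 14, H4C5, H2AC8 and H3C4 were detected on no F1177A array and passed the detection rule through DSRed alone. The fall did not depend on DSRed replicate 3, since 13 members were called lower without it. Histone genes have many near-identical copies, and their probes may read more than 1 of them. Most replication-dependent histone mRNAs also end in a stem-loop in place of a poly(A) tail, and the sources used here do not say how fully the labelling captured them. The variant that rose was H2AZ1.

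Histone H2B promoters are known for an octamer, ATTTGCAT, that binds OCT1. The letters ATTTGCAT, on either strand, stand within 250 bases upstream of the start of 10 of the 24 measured histone genes with a promoter in the RefSeq table (GRCh38.p14), and of 1.66% of all 27305 promoters in it. Among the 15 matched histone genes that were called, 8 hold it. The holders H2BC11 and H3-3B were not called. H2AC20 and H2BC21, H2AC6 and H2BC4, and H2AC8 and H2BC8 lie on opposite strands with overlapping windows. Each of these pairs shares the same octamer, which is counted for both genes. The promoters of 3 H2B genes that fell are shown because they carry it, with its first base at -46, -123 and -46 relative to the start. They are H2BC21 (chr1:149886683-149886932, minus strand), H2BC4 (chr6:26123927-26124176, minus strand) and H2BC12 (chr6:27146859-27147108, minus strand), written 5′ to 3′ in the gene's direction with the octamer in capitals.
H2BC21: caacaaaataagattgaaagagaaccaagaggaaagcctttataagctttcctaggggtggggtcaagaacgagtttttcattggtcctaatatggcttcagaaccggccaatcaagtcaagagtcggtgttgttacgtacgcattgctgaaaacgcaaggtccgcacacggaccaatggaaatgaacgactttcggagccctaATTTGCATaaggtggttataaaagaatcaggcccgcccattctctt
H2BC4: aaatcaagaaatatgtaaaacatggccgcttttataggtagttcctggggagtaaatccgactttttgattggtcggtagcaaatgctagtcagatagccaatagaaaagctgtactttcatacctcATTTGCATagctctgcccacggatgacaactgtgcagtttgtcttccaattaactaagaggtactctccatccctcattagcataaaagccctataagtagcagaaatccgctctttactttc
H2BC12: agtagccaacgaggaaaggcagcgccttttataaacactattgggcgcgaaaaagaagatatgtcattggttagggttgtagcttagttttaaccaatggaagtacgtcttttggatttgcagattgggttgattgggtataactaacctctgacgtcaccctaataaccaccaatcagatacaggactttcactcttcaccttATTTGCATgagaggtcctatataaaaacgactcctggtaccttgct
H2BC21 read 7.77, 7.65 and 7.58 with DSRed and 6.96, 6.80 and 6.73 with F1177A (-0.84, SE 0.187, adjusted p = 0.00352). H2BC4 read 5.86, 5.70 and 5.69 with DSRed and 5.11, 4.82 and 5.35 with F1177A (-0.66, SE 0.149, adjusted p = 0.00382), detected on 1 of 3 F1177A arrays, and H2BC12 read 12.19, 12.12 and 12.27 with DSRed and 11.85, 11.69 and 11.78 with F1177A (-0.42, SE 0.105, adjusted p = 0.00743). The groups did not overlap in any of these genes. A match is a description of the letters and does not show a bound site.

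Stress programmes of secretory cells were lower with F1177A than with DSRed. Plasma cells make antibody in bulk, and the unfolded protein response holds their folding capacity, while ATF4 raises amino acid supply when protein synthesis is restrained. Of 25 genes of the unfolded protein response and folding in the endoplasmic reticulum 10 fell and 0 rose, with a median of -0.46. Of 28 ATF4 and amino acid response genes 11 fell and 0 rose, also with a median of -0.46. Over all features 9.17% were called lower and 12.6% higher, with a median of -0.01. The mean level of the ATF4 list was 9.70, 9.68 and 9.65 with DSRed and 9.20, 9.19 and 9.21 with F1177A. That of the folding list was 9.21, 9.21 and 9.23 with DSRed and 8.75, 8.72 and 8.72 with F1177A. In both lists every F1177A array lay below every DSRed array. With array brightness as a covariate 5 folding genes and 7 ATF4 genes were called lower. Over all settings run, 5 to 20 folding genes and 7 to 23 ATF4 genes were called lower, and 0 of either higher. The share of all features called lower ran from 1.65% to 21.7% over these settings. The plots of list means show the 6 arrays side by side.

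HSPA5, the main chaperone of the endoplasmic reticulum, read 7.91, 8.04 and 7.84 with DSRed and 7.18, 6.76 and 7.11 with F1177A (-0.92, SE 0.279, adjusted p = 0.0243). CANX, the lectin chaperone calnexin, read 8.77, 8.69 and 8.74 with DSRed and 8.29, 8.22 and 8.31 with F1177A (-0.46, SE 0.0862, adjusted p = 0.000755). EDEM1, which passes misfolded glycoproteins to degradation, read 7.88, 7.59 and 7.62 with DSRed and 6.99, 6.87 and 6.65 with F1177A (-0.86, SE 0.176, adjusted p = 0.00179), and SEC61B, a subunit of the translocation channel, read 11.83, 11.91 and 12.36 with DSRed and 11.13, 11.08 and 11.17 with F1177A (-0.91, SE 0.121, adjusted p = 1.87e-05). The spread between arrays was largest for SEC61B with DSRed, where replicate 3 was the highest, and the groups still did not overlap. PDIA4, a disulfide isomerase, fell by 1.00 (SE 0.223, adjusted p = 0.00333), and HYOU1, a large chaperone, by 0.98 (SE 0.262, adjusted p = 0.0115). XBP1, HSP90B1, CALR, DNAJB9 and ATF6 were not called. The ER stress response element, CCAAT and CCACG with 9 bases between them, stands on either strand within 250 bases upstream of 6 of 22 matched folding genes and of 0.0806% of all promoters in the RefSeq table. Of the 9 matched folding genes that were called, 2 hold it, and the other holders XBP1, HSP90B1, CALR and CRELD2 were not called. The 2 are HSPA5 (chr9:125241344-125241593, minus strand) and CANX (chr5:179698679-179698928, plus strand), and both promoters are shown with the element in capitals.
HSPA5: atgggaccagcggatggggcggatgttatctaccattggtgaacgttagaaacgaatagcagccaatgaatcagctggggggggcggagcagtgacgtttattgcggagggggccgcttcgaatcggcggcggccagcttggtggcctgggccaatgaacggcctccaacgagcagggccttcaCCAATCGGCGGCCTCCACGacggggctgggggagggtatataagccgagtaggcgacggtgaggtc
CANX: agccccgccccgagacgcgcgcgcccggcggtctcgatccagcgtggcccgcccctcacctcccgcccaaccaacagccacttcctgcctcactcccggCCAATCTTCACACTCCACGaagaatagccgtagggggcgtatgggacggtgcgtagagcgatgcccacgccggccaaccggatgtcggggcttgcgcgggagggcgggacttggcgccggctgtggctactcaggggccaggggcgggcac
The elements start at -66 in HSPA5 and at -151 in CANX.

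In the ATF4 list, ASS1, which makes arginine from citrulline, read 7.62, 7.73 and 7.36 with DSRed and 6.38, 6.37 and 6.32 with F1177A (-1.22, SE 0.19, adjusted p = 0.000118). DDIT4, an inhibitor of mTORC1, read 11.18, 11.11 and 10.89 with DSRed and 10.23, 10.24 and 10.22 with F1177A (-0.83, SE 0.129, adjusted p = 0.000104). WARS1, the tryptophanyl tRNA synthetase, read 9.96, 9.99 and 10.03 with DSRed and 9.03, 8.87 and 9.003 with F1177A (-1.02, SE 0.206, adjusted p = 0.00146). The groups overlapped in none of the 3. TRIB3, a pseudokinase that feeds back on ATF4, fell by 0.77 (SE 0.213, adjusted p = 0.0145), and CEBPB, a partner of ATF4, by 0.65 (SE 0.167, adjusted p = 0.00933). ATF4 itself read 13.12, 13.20 and 13.30 with DSRed and 12.78, 12.68 and 12.80 with F1177A (-0.46, SE 0.105, adjusted p = 0.00437). DDIT3, the CHOP transcription factor, read 10.52, 10.42 and 10.09 with DSRed and 9.30, 9.28 and 9.29 with F1177A and was not called (-1.05, SE 0.39, adjusted p = 0.06), although the groups did not overlap. ASNS, PSAT1, PHGDH and MTHFD2 were not called. CHAC1 was detected on no F1177A array and was at least 1.19-fold lower (adjusted p = 0.00939).

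**Figure D2:**
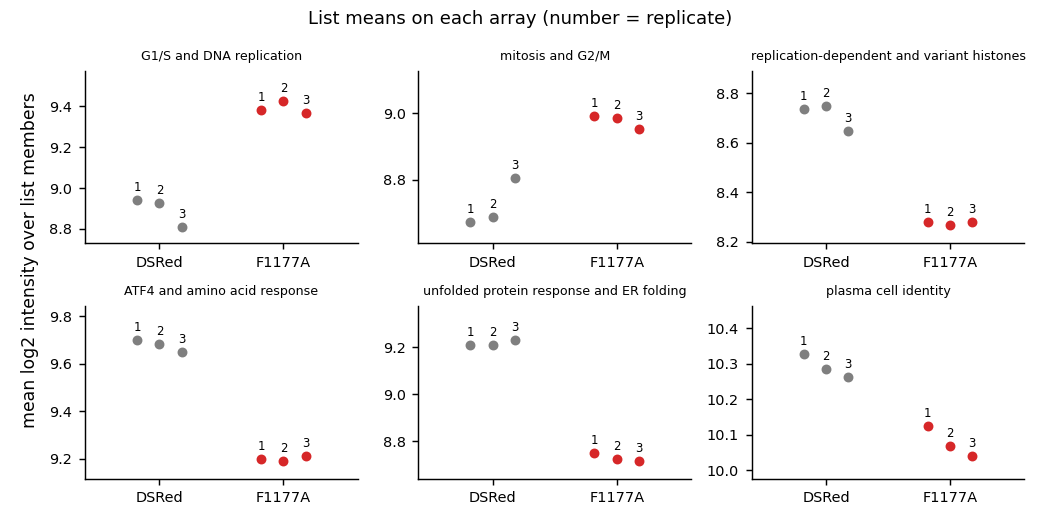
Mean normalised log2 intensity over the measured members of 6 gene lists on each of the 3 DSRed (grey) and 3 F1177A (red) arrays, each point marked with its replicate number. F1177A lies above DSRed for both cell cycle lists, a direction not seen when arrays are scaled to the median of all probes (median difference -0.01 and -0.23), and below DSRed for the other 4.

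Plasma cell genes fell more often than they rose. Of 19 identity genes 7 fell and 1 rose (median -0.17). Among all features 9.17% were called lower and 12.6% higher. SDC1, the surface proteoglycan CD138, read 6.11, 6.47 and 6.29 with DSRed and 5.55, 4.80 and 4.58 with F1177A (-1.31, SE 0.22, adjusted p = 0.000244) and was detected on 3 of 3 DSRed arrays and 1 of 3 F1177A arrays. JCHAIN, which joins secreted IgA and IgM, read 11.88, 11.91 and 12.15 with DSRed and 11.02, 10.80 and 10.84 with F1177A (-1.10, SE 0.103, adjusted p = 1.92e-07). IRF4, the transcription factor that myeloma cells depend on, read 9.64, 9.61 and 9.55 with DSRed and 9.15, 9.12 and 8.90 with F1177A (-0.55, SE 0.104, adjusted p = 0.000937), and MZB1, a chaperone of antibody assembly, read 12.54, 12.59 and 12.30 with DSRed and 11.94, 12.003 and 11.96 with F1177A (-0.51, SE 0.107, adjusted p = 0.00216). All 4 were lower on every F1177A array than on any DSRed array. XBP1, PRDM1 and TNFRSF17, the receptor BCMA, were not called. Of 7 measured genes of earlier B-cell stages 4 rose and 0 fell. PLCG2, the phospholipase of B-cell receptor signalling, read 5.30, 5.04 and 5.55 with DSRed and 7.20, 6.86 and 6.98 with F1177A (1.72, SE 0.167, adjusted p = 3.28e-07), and BACH2, a repressor of plasma cell fate, read 5.31, 5.31 and 5.70 with DSRed and 6.36, 6.07 and 6.46 with F1177A (0.86, SE 0.172, adjusted p = 0.00147). Each was detected on 1 of 3 DSRed arrays. MEF2C, also a gene of B cells, was among the largest falls. The median of these 7 was 0.32, or -0.20 under scaling to the median of all probes.

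Markers of other cell types were mostly undetected, with exceptions among the T-cell, fibroblast, myeloid, endothelial, epithelial and erythroid lists. PECAM1, the only endothelial marker detected, was detected on 2 of 3 arrays of each group and was not called. The plasma cell markers CD38 and SLAMF7 were detected on none of the 6 arrays. Of 5 B-cell markers with a probe, among them MS4A1 and CD79A, 0 were detected on any of the 6 arrays, and of 4 NK-cell markers 0. The deposited intensities of the 9 plasma cell markers summed to between 18730 and 41240 on the DSRed arrays and between 12850 and 16410 with F1177A, while T-cell markers summed to 33.8 to 54.4 and 36.4 to 71.5, most of it CD247, a T-cell receptor chain, which was detected on 2 of 3 DSRed arrays and rose (0.88, SE 0.15, adjusted p = 0.000291), and fibroblast markers to 37.8 to 101.6 and 85.2 to 124. These sums are of intensities before normalisation, and 41240 is that of DSRed replicate 3, the brightest of these arrays. COL1A1, COL1A2, COL3A1, DCN and LUM were not detected on any array, yet ACTA2, detected on 2 of 3 DSRed arrays (0.81, SE 0.15, adjusted p = 0.000669), and the receptor PDGFRB, detected on 1 of 3 (0.97, SE 0.13, adjusted p = 1.81e-05), rose. Of 6 myeloid markers 2 were measured. CD68, a lysosomal glycoprotein abundant in macrophages, read 6.81, 7.06 and 6.55 with DSRed and 7.45, 7.36 and 7.19 with F1177A and rose (0.53, SE 0.126, adjusted p = 0.00533), and LYZ was not called, while CD14, CSF1R, ITGAM and FCER1G were not detected. EPCAM, the only one of 5 epithelial markers detected, read 4.59, 4.62 and 4.80 with DSRed and 6.23, 6.34 and 6.23 with F1177A, at least 1.86-fold higher (adjusted p = 2.56e-08), while KRT8, KRT18, KRT19 and CDH1 were not detected. HBB was the only erythroid marker detected, on DSRed arrays alone, at least 1.43-fold lower with F1177A (adjusted p = 8.6e-07). HBB and HBD are near-identical in sequence and may share signal. In bulk RNA, fewer cells of a type and less RNA per cell cannot be told apart.

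Signalling genes moved in smaller sets, beside 12.6% of all features called higher and 9.17% lower. Of 12 Wnt receptors and modulators 7 rose and 1 fell (median 0.53, and 0.18 under scaling to the median of all probes), but FZD1, FZD2, FZD3 and WNT3 were detected on no DSRed array and passed through F1177A alone. Among the 7 members detected on all 6 arrays 2 rose and 1 fell, and their median was -0.23. LRP5, a Wnt co-receptor detected on 2 of 3 DSRed arrays, read 5.53, 5.27 and 5.56 with DSRed and 6.10, 6.57 and 6.45 with F1177A (0.92, SE 0.219, adjusted p = 0.00531). FZD3 was at least 1.69-fold higher (adjusted p = 2.78e-05), and LEF1, a nuclear partner of beta-catenin, fell by 0.46 (SE 0.138, adjusted p = 0.0228), a call lost when DSRed replicate 1 or 3 or F1177A replicate 1 or 2 was left out. STAT5B, a cytokine-activated transcription factor, read 5.83, 5.85 and 5.85 with DSRed and 6.94, 6.76 and 7.12 with F1177A (1.10, SE 0.14, adjusted p = 1.03e-05). SOCS2, a feedback inhibitor of that pathway, rose by 0.87 (SE 0.158), and the kinase PIM1 by 0.76 (SE 0.141), and these were the only 3 of 13 cytokine receptor and JAK-STAT genes called. DUSP5, a nuclear phosphatase of ERK, read 7.70, 7.64 and 7.55 with DSRed and 8.88, 8.87 and 8.85 with F1177A (1.23, SE 0.104, adjusted p = 4.44e-08), and 3 of 8 ERK target genes rose and 1 fell. Among NF-kB genes CCL3, a macrophage chemokine, fell below detection (at least 1.52-fold lower, adjusted p = 0.000156), and 16 of 19 were not called. PHLPP1, a phosphatase that switches off AKT, rose by at least 2.34-fold (adjusted p = 1.63e-07), and KLF2, a FOXO target, read 9.15, 8.90 and 9.60 with DSRed and 10.13, 10.07 and 10.04 with F1177A (0.86, SE 0.137, adjusted p = 0.000146), in a list of 22 PI3K and FOXO genes with 7 rises and 2 falls (median 0.12, or -0.33 under scaling to the median of all probes).

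Metabolic and organelle genes changed singly, beside 12.6% of all features called higher and 9.17% lower. In the glycolysis and hypoxia list 2 of 32 rose and 6 fell. HK2, the inducible hexokinase, read 7.48, 7.60 and 7.90 with DSRed and 6.95, 6.57 and 6.58 with F1177A (-0.96, SE 0.144, adjusted p = 7.22e-05), while HK1, the constitutive form, read 6.61, 6.37 and 6.62 with DSRed and 7.38, 7.44 and 7.61 with F1177A (0.94, SE 0.139, adjusted p = 6.13e-05). The hexokinase genes thus moved in opposite directions, with no overlap between groups in either. ANKRD37, a hypoxia-induced gene, fell by 0.83 (SE 0.116, adjusted p = 3.53e-05), but LDHA, PGK1, ENO1 and VEGFA were not called. Among 30 lysosome and autophagy genes 5 rose and 5 fell. CTSH, a lysosomal cysteine protease, read 6.69, 6.95 and 6.87 with DSRed and 8.43, 8.58 and 8.49 with F1177A (1.66, SE 0.198, adjusted p = 4.08e-06), and ULK1, the kinase that starts autophagy, rose by 0.73 (SE 0.114, adjusted p = 0.000116). Of 8 GALNT genes 3 rose and 1 fell. GALNT12 was the called one detected in both groups, at 5.58, 5.45 and 5.80 with DSRed and 6.75, 6.54 and 6.47 with F1177A (0.98, SE 0.145, adjusted p = 6.31e-05).

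Antigen presentation genes rose in part. Of 20 measured members 7 rose and 0 fell (median 0.27, or -0.19 under scaling to the median of all probes). Among all features 12.6% were called higher and 9.17% lower. HLA-DMB, a chain of the peptide-loading chaperone of class II, read 8.42, 8.44 and 8.23 with DSRed and 9.60, 9.52 and 9.40 with F1177A (1.14, SE 0.185, adjusted p = 0.00018), and its partner HLA-DMA read 10.71, 10.60 and 10.06 with DSRed and 11.21, 11.29 and 11.28 with F1177A (0.80, SE 0.146, adjusted p = 0.000575). DSRed replicate 3 was the lowest array for both genes. CD74, B2M, HLA-C and HLA-E were not called, and without DSRed replicate 3 5 of the 20 were called.

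Large housekeeping machines showed few calls. Of 30 proteasome subunits 1 fell and 0 rose, and of 44 nuclear-coded respiratory chain subunits 3 rose and 2 fell. Of 30 MYC and ribosome biogenesis genes 2 rose and 2 fell. The shares called in these lists were below those of all features in both directions. Of 46 cytosolic ribosomal proteins 6 fell and 0 rose, and of 47 mitochondrial ribosomal proteins 7 fell and 0 rose, shares above the 9.17% of all features called lower. MRPL1 read 6.87, 6.92 and 7.73 with DSRed and 6.31, 5.87 and 6.09 with F1177A (-1.08, SE 0.263, adjusted p = 0.00617), with DSRed replicate 3 far above its group.

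**Figure D3:**
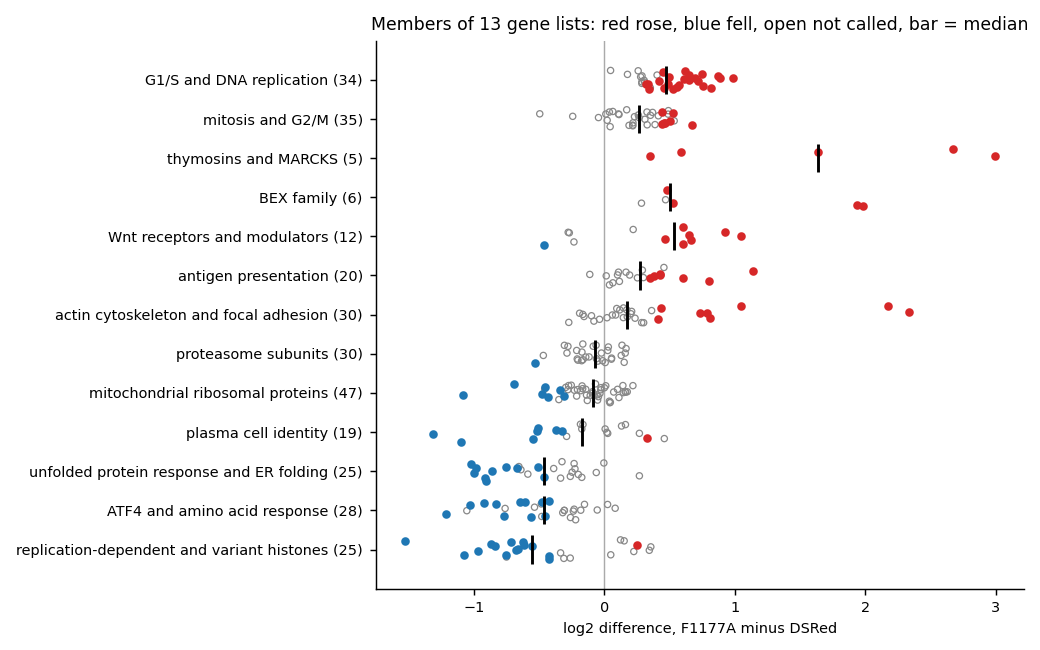
Log2 difference, F1177A minus DSRed, of each measured member of 13 gene lists (number of members in parentheses), with rises in red, falls in blue, members not called open and the list median as a bar. G1/S genes lie to the right and histone, ATF4 and folding genes to the left. Under scaling to the median of all probes, the medians of the G1/S (-0.01), mitosis (-0.23), BEX (-0.02), antigen presentation (-0.19) and actin (-0.28) lists turn below 0.

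Levels with F1177A were then set beside those with wild-type MMSET II, which share the F1177A arrays with the comparison above. In this comparison 3923 features were called (40.9%), 21.4% higher and 19.6% lower, and 2460 with array brightness as a covariate. Some lists that shifted against DSRed moved both ways here. Of 34 G1/S genes 4 were higher with F1177A and 4 lower, and of 28 ATF4 genes 5 and 2. Of 25 folding genes 2 were higher and 1 lower, and of 19 plasma cell identity genes 6 and 4. PIK3IP1, which restrains PI3K, read 6.49, 6.61 and 6.61 with MMSET II against 9.20, 9.18 and 9.06 with F1177A (2.58, SE 0.129, adjusted p = 5.92e-11). YPEL3, a growth-suppressive gene, read 6.82, 6.87 and 6.73 against 9.22, 9.33 and 9.35 (2.50, SE 0.115, adjusted p = 1.56e-11). MARCKS read 6.01, 6.17 and 6.06 against 8.54, 8.46 and 8.41 (2.39, SE 0.0978, adjusted p = 3.53e-12). In all 3 genes the MMSET II arrays lay below the DSRed arrays and the F1177A arrays above them, PIK3IP1 by 0.57 over DSRed and YPEL3 by 0.40.

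Chemokines ran the other way. CCL3 read 8.15, 8.25 and 8.34 with MMSET II and was not detected with F1177A, at least 7.72-fold lower (adjusted p = 1.56e-11). The probe of its near-identical copy CCL3L3 read 9.18, 9.34 and 9.17 against 5.07, 5.48 and 5.47 (-3.89, SE 0.148, adjusted p = 1.75e-12), with 2 of 3 F1177A arrays detected. Against MMSET II 21.4% of all features were called higher and 19.6% lower (13.4% and 12.3% with brightness as a covariate). Of the 22 PI3K and FOXO genes 15 were higher with F1177A than with MMSET II and 1 was lower (median 0.60, or -0.16 under scaling to the median of all probes), and 13 were higher with brightness as a covariate. Of 30 proteasome subunits 19 were lower and 0 higher (17 with the covariate), and of 47 mitochondrial ribosomal proteins 26 were lower and 0 higher (18 lower and 1 higher with the covariate). Antigen presentation genes were higher in 14 of 20 and lower in 0 (9 with the covariate), with a median of 0.41 that turned to -0.24 under scaling to the median of all probes.

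Against Y1118A, labelled inactive, 3680 features were called (38.4%), 19.4% higher and 19% lower, and 1262 with brightness as a covariate. This comparison also shares the F1177A arrays. Of 28 ATF4 genes 8 were higher with F1177A and 0 lower, and of 25 folding genes 2 and 2. Of 34 G1/S genes 4 were higher and 4 lower, and of 19 plasma cell identity genes 8 and 3. The shifts of these lists against DSRed thus did not recur against Y1118A. Y1118A arrays lay between the DSRed and F1177A arrays for S100A10, at 8.47, 8.60 and 8.68 (1.83, SE 0.188, adjusted p = 1.08e-06), and for PLOD2, at 5.59, 5.50 and 5.52 (1.82, SE 0.149, adjusted p = 4.91e-08). They reached the F1177A level for HERC5, at 8.88, 8.91 and 8.82, where the difference of 0.00014 (SE 0.12) was not called (adjusted p = 0.999). ADM was far higher with Y1118A, at 8.20, 8.18 and 8.24, and at least 7.51-fold lower with F1177A (adjusted p = 3.26e-11). LAMP5 was at least 4.62-fold lower with F1177A (adjusted p = 3.26e-11). HSPA6, an inducible heat shock protein, read 4.60, 4.49 and 4.52 with Y1118A, below detection, and 6.77, 6.88 and 6.83 with F1177A, at least 3.03-fold higher (adjusted p = 1.03e-09), while the F1177A and DSRed arrays overlapped.

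Sterol and fatty acid synthesis genes were higher with F1177A than with Y1118A in 19 of 25 and lower in 0 (median 0.78, and 0.04 under scaling to the median of all probes), and in 15 of 25 with brightness as a covariate, where 1 was lower. Among all features 19.4% were called higher than with Y1118A and 19% lower (7.32% and 5.84% with the covariate). HMGCS1, an early enzyme of cholesterol synthesis, read 9.10, 8.96 and 9.08 with Y1118A against 10.77, 10.53 and 10.76 with F1177A (1.64, SE 0.162, adjusted p = 6.82e-07), and 10.02, 10.07 and 9.93 with DSRed. Against DSRed 3 of these 25 genes rose and 0 fell. Proteasome subunits were lower with F1177A than with Y1118A in 19 of 30 and higher in 0, and in 11 with the covariate.

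In a set of genes the F1177A arrays stood apart from all 9 other repletion arrays. There were 372 features above and 280 below that were also called against each of the 3 other groups, which describes how the genes below were chosen, since all 3 comparisons share the F1177A arrays. COL22A1 read 6.76, 6.95 and 6.84 with F1177A, 5.54, 5.30 and 5.21 with MMSET II and 4.33, 4.32 and 4.23 with Y1118A. ACSM3, a mitochondrial acyl-CoA synthetase, read 7.60, 7.59 and 7.68 with F1177A. Its levels were 5.66, 5.89 and 5.58 with Y1118A, 6.25, 6.12 and 6.24 with MMSET II and 6.21, 6.08 and 6.30 with DSRed. ANG, the ribonuclease angiogenin, read 7.13, 7.25 and 7.08 with F1177A and between 5.63 and 6.14 on the other 9 arrays. These genes were higher with F1177A than with either the wild-type form or the form labelled inactive. TLCD3B (1.22, SE 0.177, adjusted p = 4.9e-05), the calcium-binding NECAB1 (at least 1.82-fold higher than DSRed) and LTB, the membrane-bound lymphotoxin beta (1.16, SE 0.18, adjusted p = 0.000105, detected on 2 of 3 DSRed arrays), belong to the same group. On the lower side HBD read 6.99, 6.91 and 6.87 with F1177A and between 8.43 and 9.12 on the others. IFRD1, an interferon-related developmental regulator, read 6.92, 6.94 and 7.32 with DSRed and 5.94, 5.95 and 6.06 with F1177A (-1.08, SE 0.186, adjusted p = 0.000324), and UAP1, which makes the sugar donor for N-glycans, read 9.82, 9.89 and 10.33 with DSRed and 9.29, 8.71 and 9.02 with F1177A (-1.01, SE 0.168, adjusted p = 0.000234). ICE1, a subunit of the little elongation complex, read 7.14, 6.94 and 7.81 with DSRed and 6.36, 6.26 and 6.29 with F1177A (-0.99, SE 0.207, adjusted p = 0.00198). The MMSET II and Y1118A arrays stayed within or close to the DSRed range for IFRD1, UAP1 and ICE1, as the panels of genes apart from all other groups show.

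**Figure D4:**
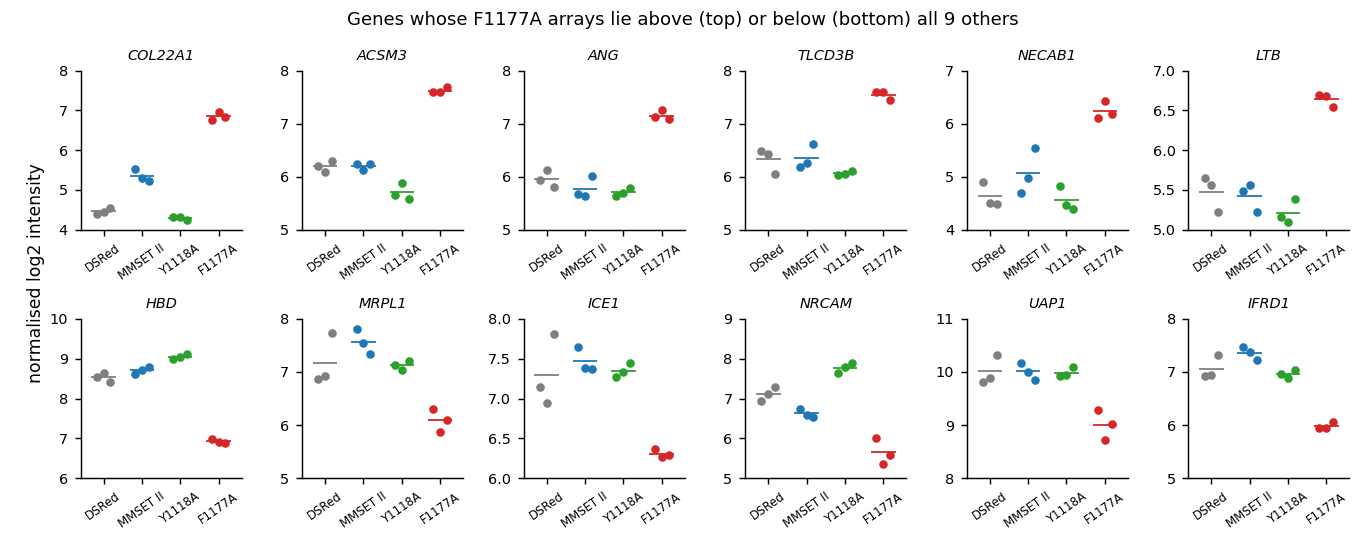
Normalised log2 intensity on the 12 repletion arrays, with DSRed grey, MMSET II blue, Y1118A green and F1177A red, 3 points a group and a line at each mean. The 3 F1177A arrays lie above all 9 others in the upper 6 genes and below all 9 in the lower 6.

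The hairpin comparison shares no array with F1177A against DSRed, and there doxycycline turns on a hairpin aimed at MMSET. Of the 2083 features called between F1177A and DSRed, 994 were also called between +DOX and no DOX, which is 47.7% of the former and 24.8% of the 4008 called in the latter (41.8% of all features). Of these 994, 717 moved in opposite directions (72.1%), 420 higher with F1177A and lower with +DOX and 297 the reverse, and 277 moved the same way. Array brightness also runs in opposite directions in the 2 comparisons, at -0.579 for F1177A minus DSRed (-0.202 without DSRed replicate 3) and 0.752 for +DOX minus no DOX, and its part in these counts was tested only through the covariate. Without DSRed replicate 3, 518 of 854 were opposite (60.7%). With brightness as a covariate, 508 of 727 were opposite (69.9%), and with both choices 336 of 517 (65%). Under scaling to the median of all probes 729 were opposite, of which 24 were higher with F1177A.

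Some genes moved strongly in both systems. ACSM3 read 8.08, 6.78 and 6.86 without doxycycline and 5.51, 4.88 and 4.88 with it (-2.15, SE 0.239, adjusted p = 1.58e-06), where 1 of 3 arrays detected it. PRCP, a lysosomal carboxypeptidase, rose with F1177A (1.505, SE 0.12, adjusted p = 2.43e-08) and fell with +DOX (-1.61, SE 0.12, adjusted p = 1.63e-08). BAIAP2L1, which links membrane curvature to actin, rose with F1177A (1.76, SE 0.0892, adjusted p = 3.27e-11) and fell with +DOX (-1.75, SE 0.0892, adjusted p = 1.91e-10). PLCG2 read 8.68, 8.07 and 8.11 without and 7.03, 6.57 and 6.48 with doxycycline (-1.60, SE 0.167, adjusted p = 8.09e-07). ADM read 5.88, 6.19 and 6.34 without and 8.12, 8.41 and 8.19 with doxycycline (2.10, SE 0.141, adjusted p = 5.38e-09), a rise, where F1177A lay below DSRed. CCL3L3 fell with F1177A (-1.36, SE 0.148, adjusted p = 1.27e-06) and rose with +DOX (2.16, SE 0.148, adjusted p = 6.05e-09). NRCAM rose with +DOX (1.25, SE 0.173, adjusted p = 1.89e-05), and MRPL1 as well (1.61, SE 0.263, adjusted p = 0.0001, 2 of 3 arrays without doxycycline detected). The thymosin gene TMSB15A fell with +DOX (-1.16, SE 0.153, adjusted p = 1.08e-05), and S100A10 likewise (-1.11, SE 0.188, adjusted p = 0.000132, 2 of 3 arrays with doxycycline detected).

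Not every list ran oppositely. In the histone list 8 of the called members moved the other way with +DOX and 0 the same way, among them H2AJ (1.46, SE 0.137, adjusted p = 2.31e-07) and H1-2 (1.29, SE 0.194, adjusted p = 4.56e-05). Of these 8, H3C4 and H4C5 had passed the detection rule through DSRed alone. In the mitochondrial ribosome list it was 5 and 0. In the unfolded protein response list 1 moved the other way and 4 the same way: PDIA4 also fell with +DOX (-1.83, SE 0.223, adjusted p = 4.38e-06), as did MANF (-0.82, SE 0.19, adjusted p = 0.0021). No DOX replicate 1 was high for PDIA4, at 10.13 against 8.70 and 9.11 on the other no DOX arrays. No alternative left out a hairpin array, so how far these counts depend on that array was not tested. In the ATF4 list it was 2 and 2, and in the G1/S list 9 and 1. PLOD2, among the largest rises with F1177A, was not called in the hairpin cells (0.17, adjusted p = 0.391). Of the 209 features that rose at least 2-fold with F1177A, 109 were not called with +DOX, 74 were lower and 26 higher.

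**Figure D5:**
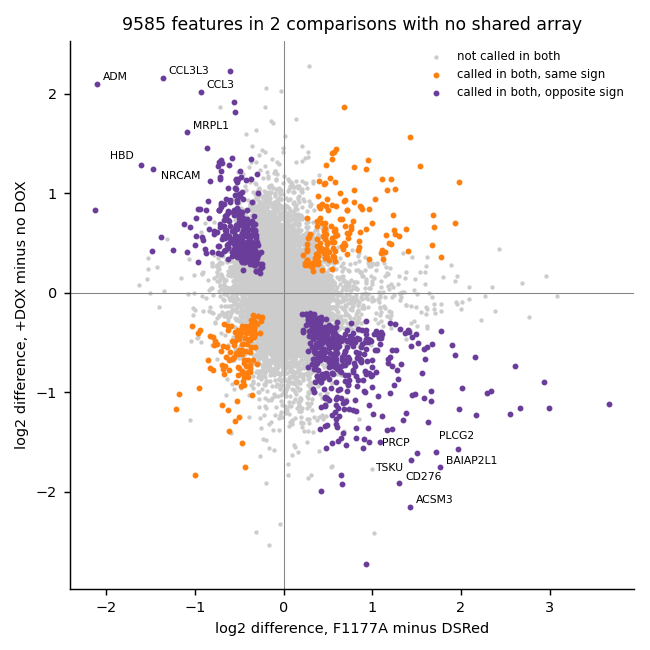
Each point is 1 of 9585 features, with the log2 difference F1177A minus DSRed on the x axis and +DOX minus no DOX on the y axis. Features called in both comparisons with opposite sign (717, purple) lie in the upper left and lower right, and those with the same sign (277, orange) in the other corners.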

How the data were processed

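The study hybridised RNA of KMS11 cells to 18 Illumina bead arrays in 6 groups of 3. The deposited table gives, per the file headers, an average intensity and a detection p-value for each of 48803 probes on each array. The authors' intensities were exported with GenomeStudio 1.5.4, per the submitters' processing notes, and 31.1% of them are below 0. The sources used here do not describe the background step behind those values. All 54 columns of values were matched to arrays by their titles. The series table of values, also deposited by the authors, ranks the probes of each array identically and was used as an alternative.

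Intensities were background-corrected with normexp, quantile-normalised and put on the log2 scale with neqc (limma 3.58.1, R 4.3.3, offset 16), with the spread of the background estimated from the detection p-values. Probes were kept at a detection p under 0.01 on at least 3 of the 6 arrays of F1177A and DSRed. Of the probes, 27578 had 1 gene symbol, 13 several and 21212 none, and for each symbol the kept probe with the highest mean level was used. One limma model with a mean for each of the 6 groups over all 18 arrays (12 residual degrees of freedom, intensity trend) gave each difference, and p-values were adjusted over all 9585 features with the Benjamini-Hochberg method. A feature is called, or said to rise or fall, at an adjusted p under 0.05. Adjusted p-values in the text are from this model unless a setting is named.

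Where a group detected a probe on 0 of 3 arrays, only a lower bound of the fold is given: the bright group's mean was set against a floor, taken on each dim array as the larger of that probe's reading and the dimmest detected reading, and averaged over the group. The genes, comparisons and gene lists were chosen with earlier results of these data known, and lists are described by counts and medians without a test. The text names the largest changes, genes detected in 1 group alone, called members of each list, genes apart from all other repletion arrays, genes moving oppositely in the hairpin cells, and genes whose probes disagree. The fit was tested on simulated data. Alternatives changed the normalisation, offset, filter, probe rule, fit, replicate block, array weights, array brightness (log2 of the 95th percentile of intensity as a covariate) and each repletion replicate left out. Scaling to the median of all probes, dropping DSRed replicate 3 together with the brightness covariate or in a fit of the compared arrays alone, the list counts with the covariate against MMSET II and Y1118A, and the alternatives for the hairpin comparison were added after the data were seen. Replicate numbers did not pair DSRed and F1177A arrays: deviations of same-numbered arrays correlated at -0.393, 0.232 and -0.044. Promoters are RefSeq sequences (GRCh38.p14), and 24 of 25 histone and 22 of 25 folding genes matched by symbol. The number of arrays and 3 per group limit the precision.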

Additional observations from a re-analysis of the deposited data

How the results depend on the processing

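The count of features called between F1177A and DSRed, 2083, stayed within 1.5 times of itself under each alternative but array weights, which gave 4100, and leaving out 1 replicate at a time gave 1397 to 1927. The replicate block gave 1952. A fit of the 6 compared arrays alone gave 1710, and a fit of the 12 repletion arrays 2841. The count called at least 2-fold, 244, moved to 89 with an offset of 50, 376 without neqc (floor 16), 396 with the series table and 94 with probes detected on all 6 arrays, and ranged from 245 to 269 with 1 replicate left out. Against MMSET II the 3923 calls became 2460 with brightness as a covariate and 5996 under scaling to the median of all probes (2.59% of them higher, from 52.2%). Against Y1118A the 3680 calls became 1262 with the covariate, 5817 with array weights and 6303 under that scaling (3.08% higher, from 50.5%). The count moving oppositely in the hairpin cells, 717, became 461 with no filter on dim probes, 1244 with array weights and 336 with the covariate and without DSRed replicate 3, and ranged from 464 (without F1177A replicate 2) to 741. Named differences that turned sign did so under scaling to the median of all probes: EZH2 (-0.0076), KIF20A (-0.023), YPEL3 (-0.10) and HERC5 against Y1118A (-0.79). Under that scaling 31 further named differences kept their sign but lost their call, 2 gained a call and 94 stayed as they were. The cause of these shifts was not tested. Of the 102 named genes called against DSRed with a printed value, 100 were called without DSRed replicate 3, and LEF1 and YPEL3 were not. The slide as a block was not run, since the files name no slides, and with 3 arrays a group and few bright probes, small changes near the detection limit are beyond these data.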
